A study of Mus musculus with 24 samples.

Results

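Livers of wild-type (WT) mice taken 3 h after an overdose of acetaminophen were compared with livers of WT mice at 0 h across all genes, by bulk RNA sequencing. The comparison uses 6 of the 24 libraries of the study, picked by their labels: the 3 labelled WT at 3 h and the 3 labelled WT at 0 h, each made from the liver of 1 mouse. The other libraries are from WT mice at 1 h and 12 h and from mice whose hepatocytes, but not other cells, lack the EGF receptor gene Egfr (KO), at 0, 1, 3 and 12 h, again 3 mice in each of the 8 groups. Both genotypes were dosed with acetaminophen at 500 mg/kg, and livers of times other than 0, 1, 3 and 12 h are not among the libraries. The labels name neither the Egfr allele nor the Cre driver of the KO. Whether the mice at 0 h received drug, vehicle or nothing is not in the labels, which also give no strain, sex, age or feeding state and no untreated mice at 3 h. The effect of the drug therefore cannot be told apart from that of time of day or handling, and a change is from 0 h unless another comparison is named.

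Acetaminophen at high dose is turned by cytochrome P450 enzymes of the hepatocyte, mainly Cyp2e1, into a reactive quinone imine. This product uses up glutathione, the cell's main thiol, and then binds proteins, above all in mitochondria, which activates stress kinases of the JNK family and ends in death of the hepatocytes around the central vein. In the first hours, before tissue is lost, hepatocytes switch on immediate early genes, stress-coded transcription factors and metal-binding proteins, and cytokines from resident cells start the acute phase response, in which the liver makes plasma proteins of defence.

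Counts on genes ran from 4.60 to 7.58 M in the 6 libraries, of which 39.6% to 43.1% fell on mitochondrial ribosomal RNA, leaving 2.64 to 4.31 M on other genes. A further 27.6% to 29.2% of all reads were ambiguous between genes and are in no gene's count. Levels are in CPM, the share of a library's counts on a gene scaled to 1e6 after TMM scaling of the library sizes, and the 3 values of a group are in the order of replicates 1, 2 and 3. CPM takes no account of gene length, so levels are compared between mice and not between genes. A change is given as a log2 fold change, with its standard error (SE), from a model fitted to all 24 libraries (edgeR's quasi-likelihood test). A gene is called where its p, adjusted over the 13204 genes tested, is under 0.05.

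In all 1865 genes were called, 14.1% of those tested, with 961 higher (7.28%) and 904 lower (6.85%) at 3 h. Scaled by library size alone, which moves the median of all genes to -0.090, the split was 689 higher and 1191 lower. The 3 and 3 mice did not overlap in 3770 genes (28.6%), called or not. A called gene counts as shared by all 3 mice where the groups do not overlap and the smallest of the 3 changes, each mouse against the mean of the 0 h mice on log2(CPM + 1), is at least 0.5 of the largest and has the same sign. Of the genes called higher 523 (54.4%) were shared in this sense, 3.96% of all genes tested, and of those called lower 581 (64.3%), 4.4% of all. Together the shared genes make 8.36% of those tested. At least 2-fold changes that all 3 mice shared numbered 260 higher and 287 lower. The median change of the genes called higher was 0.85, 0.69 and 0.88 in replicates 1, 2 and 3, and that of the genes called lower was -0.78, -0.71 and -0.82. The median log2 fold change over all genes tested was -0.0018.

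**Figure D1:**
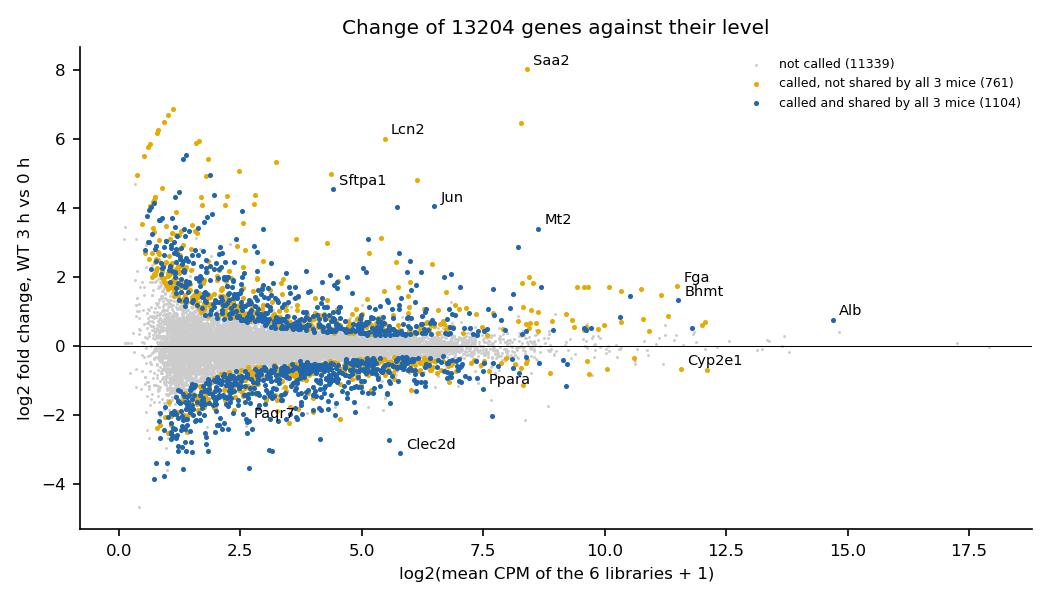
Each point is 1 of the 13204 genes tested, at its mean level over the 6 WT libraries at 0 and 3 h (x axis, log2 of CPM + 1) and its log2 fold change of WT 3 h against 0 h (y axis). Blue points are the 1104 called genes that all 3 mice shared, and the highest yellow points, Saa2 and Lcn2 among them, are called genes that the 3 mice did not share.

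Immediate early genes were, of the lists examined, the one with the most members higher in every mouse. These genes are transcribed within minutes of a stress or growth signal from factors already in the cell, and many code for transcription factors themselves. Of the 20 tested (26 in the files) 13 were called higher and none lower (65%, against 14.1% of all genes). Of these 12 were higher in all 3 mice, and the median of the list was 1.29. Egr1, a zinc finger transcription factor, was at 7.99, 4.83 and 5.06 CPM in the 0 h mice and at 136, 84.5 and 74.8 CPM in the 3 h mice, a log2 fold change of 4.02 (SE 0.412, adjusted p = 5.27e-06). Every 3 h mouse stood far above every 0 h mouse. Btg2, a brake on proliferation that promotes removal of mRNA tails, rose from 15.1, 11.1 and 16.3 to 123, 80.2 and 74 CPM (2.69, SE 0.279, adjusted p = 2.60e-06). Zfp36, which binds AU-rich mRNA of cytokines and speeds its decay, rose from 35.7, 25.6 and 31.7 to 109.8, 88.2 and 91.3 CPM (1.63, SE 0.139). Btg1, a relative of Btg2, rose by 1.54, and Klf6, a Kruppel-like factor, by 1.59 (named after its values were seen). In Egr1, Btg2 and Zfp36 replicate 1 was the highest of the 3.

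Of the AP-1 family, whose Fos and Jun proteins pair up on DNA, 11 members were tested of 15 in the files. Of these 5 were higher, all in all 3 mice, and 1 was lower (54.5%, against 14.1% of all genes), with a median of 0.72. Jun, the main target and product of JNK signalling, went from 13.1, 8.83 and 8.26 CPM at 0 h to 239, 149 and 116 CPM at 3 h (4.04, SE 0.251, adjusted p = 9.06e-10). Jund rose from 9.41, 10.3 and 11.2 to 39.1, 27.4 and 31.9 CPM (1.68, SE 0.179), and Fosl2 from 3.22, 3.57 and 4.66 to 11.8, 8.13 and 10.6 CPM (1.42). Fos itself stayed low: it was at 0.387, 0 and 0.533 CPM at 0 h against 6.88, 2.64 and 4.58 CPM at 3 h (3.73, adjusted p = 0.00125; named after its values were seen), with 1 of the 0 h mice at 0. Mafg, a small Maf protein that pairs with other factors of this fold, fell from 47.6, 47.7 and 40.1 to 29.9, 25.2 and 29.2 CPM (-0.68), a call that is lost with only replicate 1 left at 3 h (adjusted p = 0.0587).

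Genes of the MAP kinase pathways that feed AP-1 were called in both directions. The 3 Gadd45 genes, which code for small stress proteins that bind MAP kinase kinases and cell cycle proteins, were all higher. Gadd45g went from 14.7, 5.25 and 12.1 to 77.4, 38 and 42.8 CPM (2.26, SE 0.457, adjusted p = 0.003), Gadd45b from 1.42, 1.05 and 2.53 to 6.75, 5.49 and 5.05 CPM (1.73) and Gadd45a from 0.773, 0 and 0.266 to 6.61, 1.42 and 3.31 CPM (3.27). The rise of Gadd45a differed more between the mice than that of the other 2, with replicate 2 the lowest. Mapkapk2, a kinase that p38 activates, rose from 25.5, 33.2 and 27.8 to 57.5, 39 and 54.6 CPM (0.82, adjusted p = 5.06e-05). Map2k6, the kinase that switches p38 on, fell from 26.2, 19.3 and 24.9 to 8.95, 5.69 and 4.58 CPM (-1.86, SE 0.230, adjusted p = 1.56e-06). Map3k5, the kinase ASK1 that oxidants activate above JNK and p38, fell from 68.6, 62.2 and 65.7 to 42.4, 31.7 and 26.7 CPM (-0.96; adjusted p = 0.0648 with only replicate 1 at 3 h). Over the 18 tested genes of the JNK and p38 pathway 4 were higher and 2 lower (33.3%, against 14.1% of all genes). The median was 0.16.

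Among 15 tested MAP kinase phosphatases and feedback inhibitors 4 were higher and 2 lower (40%, against 14.1% of all genes). Dusp1, which removes the activating phosphates of JNK and p38, rose from 7.60, 3.78 and 10.7 to 45.7, 20.3 and 27.6 CPM (2.04, SE 0.332, adjusted p = 0.000413). Dusp8, which acts on the same kinases, rose from 1.42, 0.841 and 0.400 to 5.92, 3.66 and 3.79 CPM (2.31, SE 0.408). Errfi1, which binds and inhibits the EGF receptor, rose by a smaller amount, from 704, 623 and 652 to 1041, 848 and 846 CPM (0.47, adjusted p = 0.00457, but 0.0877 with only the 2 groups in the fit). Spry4, an inhibitor of the path from growth factor receptors to ERK, fell from 6.96, 6.10 and 4.53 to 2.48, 2.03 and 1.10 CPM (-1.62; adjusted p = 0.0857 with only replicate 1 at 3 h). Egfr was at 385, 334 and 461 CPM at 0 h against 303, 633 and 455 CPM at 3 h and was not called (0.24, adjusted p = 0.782). Erbb3, its partner receptor, fell from 88, 80.3 and 82.5 to 49.7, 57.9 and 48.1 CPM (-0.69, SE 0.119, adjusted p = 0.000145), and the groups did not overlap.

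**Figure D2:**
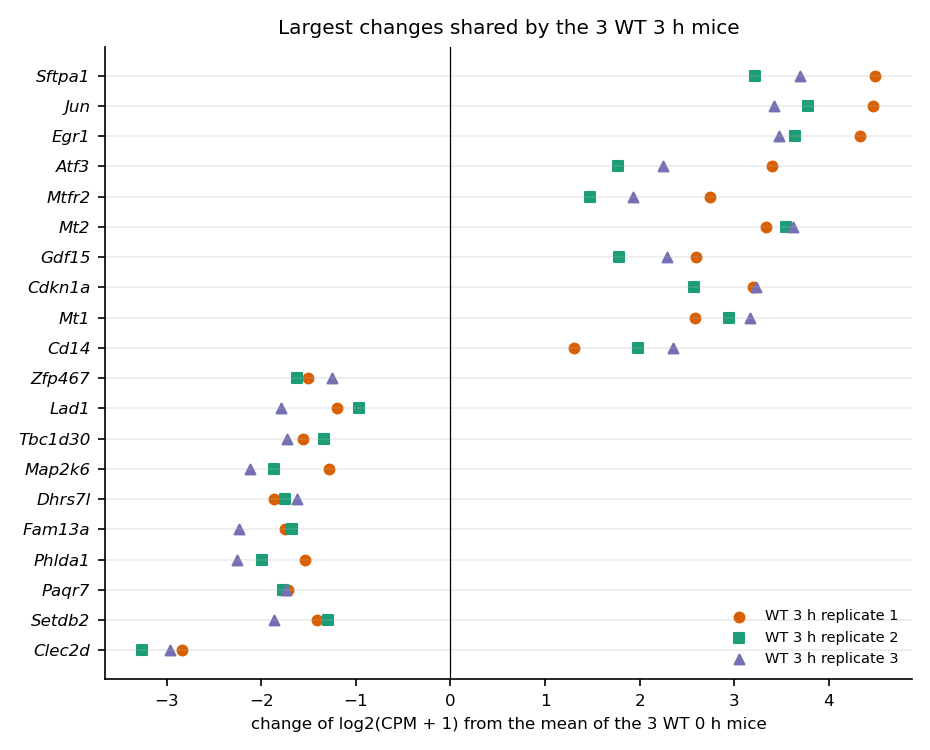
Change of log2(CPM + 1) of each WT 3 h mouse from the mean of the 3 WT 0 h mice (x axis) for the 10 genes with the largest rise and the 10 with the largest fall among called genes of at least 5 CPM that all 3 mice shared. Circles, squares and triangles are replicates 1, 2 and 3, and in every gene the 3 lie on the same side of 0.

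Genes of the integrated stress response, which cells start when the translation factor eIF2 alpha is phosphorylated, were higher in part. Of the 25 tested (30 in the files) 11 were higher and 1 lower (48%, against 14.1% of all genes), with a median of 0.80. Of the higher genes 7 rose in all 3 mice. On log2(CPM + 1) the median change of the list was 0.64, 0.13 and 0.62 in replicates 1, 2 and 3, the smallest in replicate 2. Atf4, the transcription factor at the centre of the response, was even among the mice: 25.1, 28.4 and 26.5 CPM at 0 h against 68, 62 and 64.4 CPM at 3 h (1.28, SE 0.133, adjusted p = 9.06e-08). Atf3, a factor that Atf4 and JNK signalling both induce, rose from 0.773, 0.841 and 0.266 to 16, 4.47 and 6.63 CPM (3.92, SE 0.534), highest in replicate 1. Gdf15, a secreted stress hormone that lowers appetite, rose from 1.42, 0.631 and 0.533 to 10, 5.28 and 7.89 CPM (3.11, SE 0.543). Cebpg, a partner of Atf4 on DNA, fell by 0.45 (adjusted p = 0.0146). This call was lost without replicate 1 (0.0513), 3 (0.0659) or 2 and 3 together at 3 h and without replicate 1 at 0 h (0.0921). It was also lost with only the 2 groups in the fit and with no filter on low counts. Cytosolic aminoacyl-tRNA synthetases are enzymes that load amino acids on tRNA and classic Atf4 targets. Of the 20 tested 3 were higher and none lower (15%, against 14.1% of all genes), with a median of 0.17. Tars1, for threonine, rose from 59.7, 61 and 52.9 to 88.9, 84.3 and 93.6 CPM (0.62, adjusted p = 0.000112) and Lars1, for leucine, from 19.7, 19.5 and 22.2 to 32.5, 24.6 and 34.1 CPM (0.57, adjusted p = 0.00209). For Wars1, the remaining call, 54.5% of strand-assigned reads lay on the gene's own strand, and the log2 fold change was 0.81 on all reads but -0.03 on those. Its call was also lost without replicate 1 (0.0854) or 2 (0.0558) at 3 h or replicate 3 at 0 h (0.147), and with only the 2 groups in the fit.

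Metallothioneins, small cysteine-rich proteins that bind zinc and copper and take up oxidants, rose almost evenly in the 3 mice. Mt2 was at 72.1, 35.7 and 96.6 CPM at 0 h against 645, 744 and 788 CPM at 3 h, a log2 fold change of 3.40 (SE 0.342, adjusted p = 3.71e-06). Mt1 was at 74.2, 46.9 and 92.5 against 418, 534 and 626 CPM (2.88, SE 0.383, adjusted p = 8.20e-05). Both are also acute phase genes, yet the changes of Mt2 on log2(CPM + 1) were close in replicates 1, 2 and 3, at 3.34, 3.54 and 3.63. In both genes the groups lay far apart. The zinc exporter of the cell membrane Slc30a1 rose from 26.4, 19.5 and 28.2 to 38.3, 34.1 and 39.4 CPM (0.58; adjusted p = 0.0569 with only replicate 1 at 3 h). Over 13 tested genes of metal binding and zinc transport 5 were higher and none lower (38.5%, against 14.1% of all genes). The median was 0.19. Hmox1, the heme oxygenase that breaks down heme and responds to oxidants, rose from 8.38, 11.1 and 8.66 to 58.8, 29.1 and 91.3 CPM (2.70, SE 0.504, adjusted p = 0.00166), and here replicate 2 was the lowest.

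Stretches of 8 promoters are printed because their genes rose in all 3 mice and hold, in the 250 bases before the start, letters of an element known from the signalling paths above. The sequences are from the RefSeq promoter table of build GRCm38.p6, while the counts were made on mm39, so no position is carried over to the counts. Of the 185 genes named by rule 145 were found in that table by symbol. A named gene counts as holding a motif where any of its listed starts does, while the share of all promoters counts each start by itself. Genes with several starts can thus raise the share of named genes, so these shares are not like for like. Each motif was searched on both strands, a match is a description of letters and not a bound site, and capitals mark only the motif for which a stretch is shown. Other motifs searched can also match within a stretch and are left in lower case, such as the AP-1 site in that of Mt2 and the E-box in that of Dusp1. The cAMP response element, TGACGTCA, stands in 1.55% of all 32851 promoters of this length in the table, in 6 of the 85 named genes called higher (7.06%) and in 0 of the 60 called lower. The first 3 stretches hold it, 2 times in Dusp8: Dusp1 at chr17:26508573-26508652, Dusp8 at chr7:142095325-142095414 and Btg2 at chr1:134079276-134079355, all on the minus strand. The next 2 hold TGATGNAA, the composite element of ATF4 and CHOP, read here from the other strand: Atf3 at chr1:191183404-191183483 on the minus strand and Chac1 at chr2:119351012-119351091 on the plus strand. That motif is in 3.45% of all promoters, in 7 of the 85 genes (8.24%) and in 2 of the 60 (3.33%).
Dusp1: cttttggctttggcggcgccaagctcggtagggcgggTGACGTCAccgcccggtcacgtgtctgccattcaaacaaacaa
Dusp8: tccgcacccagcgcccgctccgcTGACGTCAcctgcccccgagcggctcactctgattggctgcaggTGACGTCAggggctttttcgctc
Btg2: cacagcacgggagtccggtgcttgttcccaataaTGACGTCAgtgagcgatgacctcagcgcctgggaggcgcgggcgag
Atf3: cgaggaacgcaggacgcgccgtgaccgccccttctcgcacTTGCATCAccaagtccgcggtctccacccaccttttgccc
Chac1: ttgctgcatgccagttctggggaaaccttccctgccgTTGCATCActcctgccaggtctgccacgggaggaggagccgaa

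The core of the metal response element, to which the zinc sensor MTF1 binds, was searched in the forms TGCACNC and TGCGCNC. They stand in 10.4% and 12.5% of all promoters, so a match is common. In the named genes called higher they were found in 11 (12.9%) and 17 (20%) of 85, and in those called lower in 9 (15%) and 10 (16.7%) of 60. Mt2, at chr8:94172478-94172587, holds 1 match of each form in the printed stretch, and Mt1, at chr8:94178969-94179078, holds 1 of the first form, both on the plus strand of chromosome 8. The STAT site TTCNNNGAA, in 7.02% of all promoters, is shown in Socs3, at chr11:117969477-117969556 on the minus strand. It is in 6 of the 85 genes (7.06%) and in 5 of the 60 (8.33%). The site of AP-1 itself, TGANTCA, is in 6.75% of all promoters, in 3 of the 85 genes called higher (3.53%) and in 4 of the 60 called lower (6.67%). The other motifs searched were the antioxidant response core TGACNNNGC (12.9% of the genes called higher, 13.3% of those called lower and 10.2% of all promoters), the E-box CACGTG (12.9%, 13.3% and 6.02%) and the ROR core AGGTCA (20%, 23.3% and 14%). The TATA box TATAAA was in 14.1%, 20% and 12.4%, the D-box TTATGTAA in 1.18%, 3.33% and 0.819%, and the C/EBP site TTGCGCAA in 1.18%, 0% and 0.164%.
Mt2: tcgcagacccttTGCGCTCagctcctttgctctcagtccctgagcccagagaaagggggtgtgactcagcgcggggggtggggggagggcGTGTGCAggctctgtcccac
Mt1: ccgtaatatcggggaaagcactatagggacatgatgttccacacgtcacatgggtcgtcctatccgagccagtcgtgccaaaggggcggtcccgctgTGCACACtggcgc
Socs3: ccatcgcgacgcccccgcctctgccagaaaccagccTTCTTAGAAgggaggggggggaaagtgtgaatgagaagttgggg

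Of 18 tested targets of the tumour suppressor p53, 6 were higher and none lower (33.3%, against 14.1% of all genes). Of these 4 rose in all 3 mice, and the median of the list was 0.26. Cdkn1a, the inhibitor p21 that stops the cell cycle, went from 4.38, 6.10 and 10.7 to 69, 44.5 and 70.5 CPM (3.11, SE 0.407, adjusted p = 6.79e-05). Plk3, a stress kinase, rose from 20.9, 25.6 and 21.1 to 127, 71.1 and 96.1 CPM (2.14, SE 0.260), and Trp53inp1, which takes part in cell death and autophagy, from 124, 78 and 93.9 to 353, 322 and 266 CPM (1.66, SE 0.177). Several of the called members, Btg2 and Gadd45a with them, also belong to other lists here. Of 27 genes of the BCL2 family and of cell death, 3 were higher and 2 lower (18.5%, against 14.1% of all genes). Bcl2l11, which codes for the death promoter BIM, rose from 6.70, 8.41 and 6.79 to 14.7, 14.4 and 10.1 CPM (0.86, adjusted p = 0.00273), and Cflar, which blocks caspase 8, fell from 73.5, 76.7 and 60.6 to 46.3, 51.8 and 51.4 CPM (-0.49, adjusted p = 0.00408). Of 23 tested genes of the cytoskeleton and YAP targets 3 were higher and 1 lower (17.4%, against 14.1% of all genes), with a median of 0.04. Called were Actg1, for gamma actin, at 7.09, 9.67 and 11.2 against 37.6, 23.8 and 39 CPM (1.86), and Tubb2a, for a beta tubulin, at 3.61, 4.20 and 3.46 against 22.3, 10.6 and 15 CPM (2.12), both of which rose, while Amotl2, a YAP target and inhibitor, fell from 20.2, 20.8 and 27.7 to 9.77, 6.91 and 8.20 CPM (-1.45).

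The liver makes cysteine for glutathione from methionine by way of S-adenosylmethionine, homocysteine and cystathionine. Of 20 tested genes of this route and of glutathione synthesis and breakdown, 7 were higher and 1 lower (40%, against 14.1% of all genes). Of these 5 and 1 changed in all 3 mice, and the median of the list was 0.24. Bhmt, which remakes methionine from homocysteine with betaine, went from 1734, 1525 and 1771 to 5609, 3773 and 3206 CPM (1.32, SE 0.178, adjusted p = 4.44e-06), with replicate 1 the highest. Its relative Bhmt2, named after its values were seen, rose from 77.5, 55.5 and 71.9 to 101, 99.5 and 85.3 CPM (0.48, adjusted p = 0.00671, and 0.0608 without replicate 2 at 0 h). Gnmt, which uses up S-adenosylmethionine, rose from 202, 208 and 181 to 295, 235 and 307 CPM (0.50, adjusted p = 0.00503). Cbs, the step from homocysteine to cystathionine, rose from 68.4, 70 and 54.9 to 95.1, 96.3 and 116 CPM (0.67; adjusted p = 0.00224, and 0.0873 with only replicate 1 at 3 h).

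Neither subunit of the limiting enzyme of glutathione synthesis was called. Gclc, its catalytic subunit, was at 68.4, 78.6 and 46 CPM at 0 h against 75.6, 57.3 and 66.9 CPM at 3 h (0.06, SE 0.187), and its partner Gclm at 68.3, 69.2 and 56.6 against 63.5, 70.7 and 66.3 CPM (0.05, SE 0.126). The 2 enzymes that cut glutathione inside the cell moved in opposite directions. Chac1, also a stress response gene, rose from 0.902, 0.210 and 0.533 to 4.41, 2.23 and 4.42 CPM (2.62, SE 0.519, adjusted p = 0.000677), and Chac2, the slower enzyme of the pair, fell from 10.8, 10.3 and 12.4 to 4.27, 3.66 and 5.21 CPM (-1.34, SE 0.238, adjusted p = 0.000195). At the depth of these libraries a few CPM are few reads, so the level of Chac1 is less certain than that of Chac2. Of 29 tested targets of NRF2, the sensor of oxidants and electrophiles, 3 were higher and 1 lower, close to the share of calls among all genes, with a median of 0.05. Its textbook target Nqo1 was at 2.32, 2.31 and 2.40 against 2.34, 3.05 and 2.84 CPM (0.21, adjusted p = 0.719), and Nfe2l2, the gene for NRF2, at 27.2, 29.4 and 27 against 27.9, 24.2 and 27.6 CPM. The glutathione S-transferases gave 3 higher and 1 lower of 20 tested (20%, against 14.1% of all genes). Gstt2 fell from 16, 10.5 and 12.8 to 5.92, 6.30 and 2.37 CPM (-1.46, adjusted p = 0.000186) and its neighbour in the family Gstt3 rose from 11.9, 13.5 and 13.2 to 19.3, 19.1 and 21.3 CPM (0.64; adjusted p = 0.111 with only replicate 1 at 3 h).

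Of 6 tested genes of acetaminophen activation Cyp2e1 was called, lower, from 3615, 3234 and 4304 to 2872, 2294 and 1862 CPM (-0.67, SE 0.201, adjusted p = 0.0253). The call is not firm: it is lost without replicate 2 (0.07) or 3 (0.144) at 3 h and without replicate 1 (0.062) or 3 (0.112) at 0 h. It is also lost with only the 2 groups in the fit and with no filter on low counts. Cyp1a2 was at 73.7, 96.3 and 78.7 against 154, 90.6 and 66.3 CPM, Cyp3a11 at 1362, 2277 and 1400.0 against 2008, 1103 and 1649 CPM and Por, the reductase that feeds electrons to them, at 302, 270.3 and 322 against 322, 280.2 and 274 CPM, and none of these passed. Of 46 tested P450 genes of families 1 to 4, a total of 4 were higher and 7 lower (23.9%, against 14.1% of all genes). Cyp2d13 was lower in all 3 mice, from 53.7, 58.6 and 45.4 to 18.4, 25.8 and 18 CPM (-1.35, SE 0.265), as far as reads can be told apart within the Cyp2d family. The genes of the safe routes, glucuronidation and sulfation, gave 1 higher and 3 lower of 19 (21.1%, against 14.1% of all genes).

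Genes of glucose handling and insulin action changed in both directions, 6 higher and 3 lower of 24 tested (37.5%, against 14.1% of all genes). Of these 6 and 2 changed in all 3 mice, and the median of the list was 0.23. Igfbp1, a secreted binder of insulin-like growth factors that insulin represses, went from 184, 164 and 238 to 561, 601 and 738 CPM (1.70, SE 0.351, adjusted p = 0.00338). Foxo1, the factor through which fasting raises such genes, rose from 40.5, 33.8 and 38.8 to 56.4, 49.6 and 54.6 CPM (0.50, adjusted p = 0.00545). Ppp1r3c, which targets a phosphatase to glycogen, rose from 13, 8.62 and 8.13 to 24.4, 25.8 and 21.9 CPM (1.26), while Gys2, the liver glycogen synthase, fell from 198, 164 and 149 to 97.3, 83.7 and 70.2 CPM (-1.02, SE 0.163, adjusted p = 7.04e-05). Pfkfb1, which sets the balance of glycolysis and glucose production, fell from 26.3, 21.2 and 26.8 to 13.5, 10.2 and 8.20 CPM (-1.22, adjusted p = 1.30e-05). The genes of glucose output did not pass: Pck1 was at 2118, 2186 and 1893 against 2071, 1794 and 1267 CPM and G6pc1 at 140.4, 140.2 and 133 against 238, 109 and 146 CPM. With only replicate 1 at 3 h the calls of Igfbp1 (0.0741) and Ppp1r3c (0.0559) were lost.

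**Figure D3:**
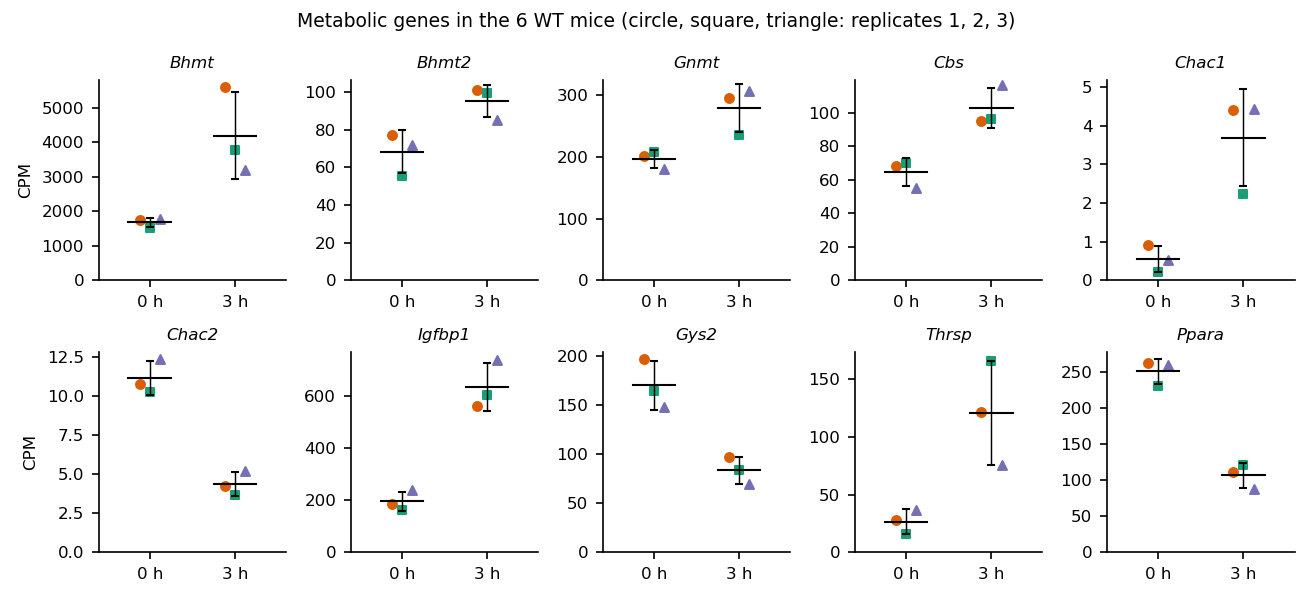
Levels (y axis, CPM from 0) of 10 metabolic genes in the 3 WT mice at 0 h and the 3 at 3 h (x axis). Circles, squares and triangles are replicates 1, 2 and 3, lines are means and bars are ± 1 SD. In each panel the 3 h mice lie all above or all below the 0 h mice, for example Ppara at 111, 121 and 88 CPM against 262, 231 and 259.5 CPM.

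Of 23 tested genes of fat synthesis 7 were higher and 6 lower (56.5%, against 14.1% of all genes). In all 3 mice 3 were higher and 5 lower. Thrsp, the S14 protein that goes with lipogenesis, went from 27.7, 15.8 and 36.8 to 122, 166 and 75.4 CPM (2.15, SE 0.430, adjusted p = 0.00278). Insig2, which holds the SREBP factors in the endoplasmic reticulum, rose from 192, 167 and 237 to 555, 306 and 456 CPM (1.14, SE 0.200), and Agpat2, a step of triglyceride and phospholipid synthesis, from 38.7, 52.5 and 42.2 to 70.5, 72.9 and 64.8 CPM (0.65). Lower were Gpam, the first step of glycerolipid synthesis, from 168, 136 and 163 to 102, 97.3 and 87.4 CPM (-0.71, SE 0.129). Of enzymes that lengthen or desaturate fatty acids, Elovl2 fell by 0.79, Elovl6 by 1.01 and Fads2 by 0.86, with adjusted p of 0.0648, 0.053 and 0.064 when replicate 1 alone stands for 3 h. Scd1, the stearoyl desaturase, was called higher (1.60), but its levels of 929, 558 and 443 CPM at 0 h against 534, 2514 and 2809 CPM at 3 h show that the mice did not share it: replicate 1 lay within the range of the 0 h mice and replicates 2 and 3 above it (named after its values were seen). Its call was lost without replicate 2 (0.095) or 3 (0.138) at 3 h and replicate 2 (0.0958) or 3 (0.111) at 0 h. The same held with only the 2 groups in the fit and with no filter on low counts. None of 23 genes of cholesterol synthesis was called by edgeR or DESeq2 (4 at an unadjusted p under 0.05).

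Ppara, the receptor that senses fatty acids and drives their oxidation, fell in every mouse, from 262, 231 and 259.5 to 111, 121 and 88 CPM (-1.23, SE 0.163, adjusted p = 5.54e-06). Of 34 tested targets of this receptor and genes of fatty acid oxidation, 2 were higher and 9 lower (32.4%, against 14.1% of all genes). Their median log2 fold change was -0.21. The median of the list was 0.02 in replicate 1 and -0.36 and -0.35 in replicates 2 and 3, so that the lower level of the list as a whole lay in those 2 mice. Vnn1, a pantetheinase that PPARA induces, fell from 38.4, 25.4 and 47.3 to 16, 14.4 and 9.31 CPM (-1.50) and Bdh1, which makes the ketone body hydroxybutyrate, from 71.1, 58.2 and 63.6 to 29.5, 28.2 and 17.5 CPM (-1.36). Both calls were lost with replicate 1 alone at 3 h (adjusted p = 0.126 and 0.182).

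Hepatocyte identity factors were lower in part, 6 of 21 tested, with 1 higher (33.3% called, against 14.1% of all genes). The median was -0.23. Foxa2 and Foxa1, pioneer factors that open liver chromatin, went from 12.4, 17.4 and 10.1 to 3.99, 4.06 and 6.47 CPM (-1.42, SE 0.298) and from 17.4, 15.8 and 13.6 to 7.30, 8.94 and 7.41 CPM (-0.99, SE 0.185). Nr5a2, a receptor for phospholipids that controls bile acid genes, fell from 42.8, 41.8 and 37.2 to 27.3, 24.8 and 28.9 CPM (-0.59, adjusted p = 0.000769). Hnf4a, the main regulator of hepatocyte genes, did not pass (315, 311 and 349 against 292, 340.3 and 323 CPM, log2 fold change -0.03, SE 0.110). Among the 25 tested genes of bile acid synthesis and transport 5 were lower and none higher (20%, against 14.1% of all genes). Nr0b2, the repressor SHP that bile acids induce through FXR, fell from 4.90, 5.89 and 3.73 to 1.51, 0.609 and 1.58 CPM (-1.87; adjusted p = 0.0821 with replicate 1 alone). Abcg8, one of a pair of proteins that pump cholesterol into bile, fell from 47.6, 41.2 and 40 to 23.3, 20.7 and 19.7 CPM (-1.01, SE 0.138, adjusted p = 5.27e-06) in every mouse. In bulk liver, fewer cells of a type and less RNA per cell cannot be told apart in these falls.

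Clock genes are given because the time of day of the 0 h and 3 h livers is not in the labels. Of 26 tested 4 were higher and 7 lower (42.3%, against 14.1% of all genes). Npas2, a partner of Bmal1, rose from 0.258, 0.420 and 0.533 to 2.62, 2.03 and 2.52 CPM (2.53, adjusted p = 0.00442), Tef, an output factor, fell from 101, 89.8 and 90.9 to 43.1, 56.1 and 37.7 CPM (-1.05, adjusted p = 1.50e-05), and Per3, a repressor arm gene, fell from 18.3, 14.1 and 23.3 to 4.68, 8.94 and 2.68 CPM (-1.84). The part of the hour of sampling in these results was not tested.

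Of 20 tested cytosolic heat shock chaperones 5 were lower and 1 higher (30%, against 14.1% of all genes). Hspb8, a small chaperone that guides proteins to autophagy, rose from 27.5, 23.5 and 24.5 to 61.1, 45.7 and 62.6 CPM (1.17, SE 0.144, adjusted p = 1.43e-06). Chordc1, a partner of HSP90, fell from 28.9, 28 and 20.9 to 10.7, 13.6 and 11.8 CPM (-1.11, SE 0.204). None of the 23 tested genes of endoplasmic reticulum chaperones and the unfolded protein response was called by edgeR or DESeq2 (5 at an unadjusted p under 0.05, range -0.67 to 0.35), and the chaperone BiP (Hspa5) was at 229, 218 and 162 against 235, 244 and 196 CPM. Among genes of autophagy 4 were higher and 4 lower of 30 (26.7%, against 14.1% of all genes). Tfeb, the factor that runs lysosome genes, fell from 6.32, 4.41 and 6.66 to 2.06, 2.84 and 1.42 CPM (-1.51, adjusted p = 0.000528). Vmp1, needed to form the autophagosome, rose from 59.4, 44.4 and 43 to 75.7, 65.4 and 76.7 CPM (0.57, adjusted p = 0.00551).

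**Figure D4:**
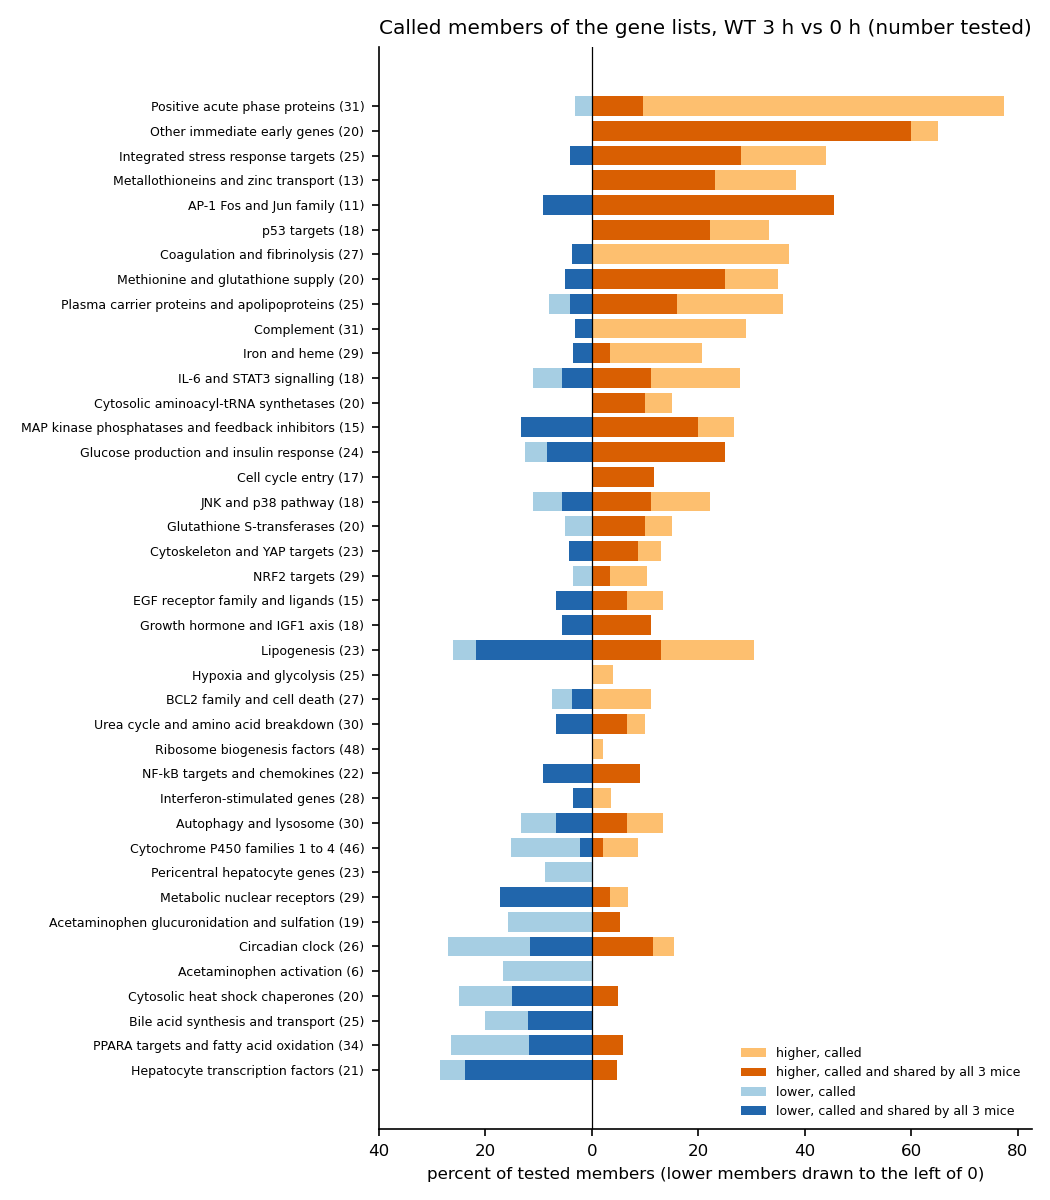
Percent of the tested members of each gene list that were called higher (right of 0) or lower (left of 0) at 3 h, with the number tested in brackets, ordered by the difference of higher and lower. Dark bars are the members that all 3 mice shared: 12 of the 13 higher immediate early genes, but 3 of the 24 higher acute phase genes. Lists with no called member are not drawn.

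Acute phase genes were high in replicates 2 and 3 and not in replicate 1. Of 31 tested 24 were called higher and 1 lower (80.6%, against 14.1% of all genes). But 3 were shared by all 3 mice, Mt1, Mt2 and Cd14. The median change of the list was 0.16 in replicate 1 and 1.89 and 2.09 in replicates 2 and 3. Saa2, a serum amyloid A protein whose reads are hard to separate from Saa1, was at 1.42, 3.57 and 2.93 CPM at 0 h against 1.24, 1188 and 816 CPM at 3 h. Lcn2, which withholds iron from bacteria, was at 0.644, 0.841 and 2.27 against 2.34, 118 and 137 CPM, Orm2, for an orosomucoid, at 2.19, 3.57 and 8.26 against 0.964, 220.2 and 182 CPM, and Apcs, for serum amyloid P, at 8.76, 5.89 and 9.99 against 6.47, 116 and 102 CPM. In Saa2, Orm2 and Apcs replicate 1 lay within or below the range of the 0 h mice. With replicate 1 alone at 3 h the log2 fold changes were -1.01 for Saa2, -2.28 for Orm2, -0.37 for Apcs and 0.85 for Lcn2, none of them called (adjusted p = 0.93, 0.476, 0.676 and 0.686). The call of Saa2 was also lost without replicate 1 (0.0709), 2 (0.0535) or 3 (0.0621) at 0 h. With only the 2 groups in the fit the calls of Saa2, Orm2, Apcs and Lcn2 were lost, as was that of Fga, given below.

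**Figure D5:**
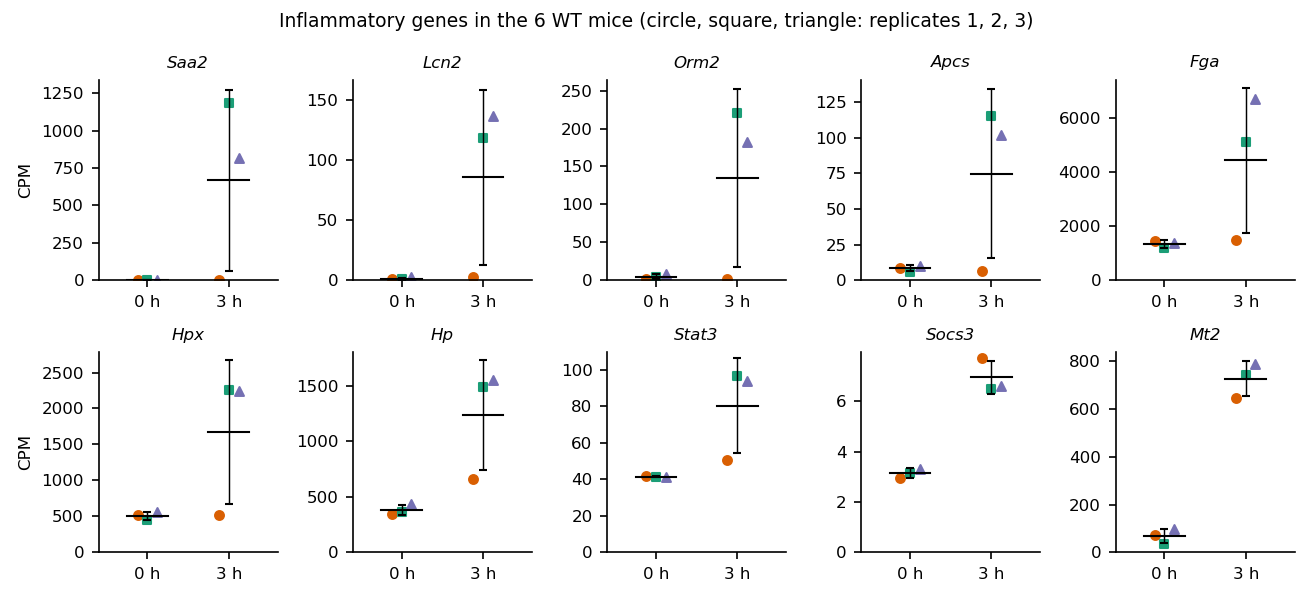
Levels (y axis, CPM) of 10 inflammatory genes in the 3 WT mice at 0 h and the 3 at 3 h (x axis). Circles, squares and triangles are replicates 1, 2 and 3, lines are means and bars ± 1 SD. Replicate 1 at 3 h stays at the level of the 0 h mice in Saa2, Orm2, Apcs, Fga and Hpx and rises with the others in Mt2 and Socs3.

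Some inflammatory genes were higher in all 3 mice. Hp, haptoglobin, which binds free hemoglobin, was higher in every mouse but more so in 2, at 343, 366 and 433 CPM against 662, 1489.6 and 1551 CPM (1.70, SE 0.189, adjusted p = 7.58e-07), and was still called with replicate 1 alone (0.80, adjusted p = 0.000819). Cd14, the co-receptor for bacterial lipopolysaccharide, rose from 0.129, 1.26 and 1.07 to 3.30, 5.89 and 7.89 CPM (2.86, SE 0.451). Socs3, the brake on signalling from the IL-6 receptor, rose almost equally in the 3 mice, from 2.96, 3.15 and 3.33 to 7.71, 6.50 and 6.63 CPM (1.15, SE 0.302, adjusted p = 0.00992, but 0.0519 without replicate 1 at 3 h and 0.0534 with it alone). Stat3, the factor that IL-6 activates, was at 41.6, 41.2 and 41.4 CPM at 0 h against 50.5, 96.7 and 94 CPM at 3 h (0.95), again with replicate 1 apart (adjusted p = 0.482 with it alone).

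Of 22 tested NF-kB targets and chemokines 2 were higher and 2 lower (18.2%, against 14.1% of all genes), and the median was -0.18. Nfkbiz, an atypical inhibitor that NF-kB induces, rose from 5.03, 5.68 and 6.66 to 12.1, 12.4 and 15.9 CPM (1.22, adjusted p = 0.00104) and Rel, an NF-kB subunit, from 7.48, 3.78 and 9.73 to 14.5, 12.8 and 12.3 CPM (0.86, adjusted p = 0.00271). Irf1, an interferon-induced factor, fell from 5.67, 8.83 and 8.26 to 2.89, 3.05 and 2.37 CPM (-1.43, adjusted p = 0.000423). Of 28 interferon-stimulated genes 1 was higher and 1 lower (7.14%, against 14.1% of all genes).

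Coagulation and complement proteins, which the liver secretes, also had higher medians in replicates 2 and 3 than in replicate 1. Of 27 tested coagulation genes 10 were higher and 1 lower (40.7%), and of 31 complement genes 9 were higher and 1 lower (32.3%). Among all genes tested 14.1% were called. No higher member of either list was shared by all 3 mice. Fga, the alpha chain of fibrinogen, was at 1456, 1179 and 1376 CPM at 0 h against 1485, 5131 and 6698 CPM at 3 h (1.73, adjusted p = 0.00134, and 0.707 with replicate 1 alone). The median changes of the coagulation list were -0.00032, 0.42 and 0.42 in replicates 1, 2 and 3, and those of the complement list 0.06, 0.40 and 0.40. Cd55, the membrane protein that shields cells from complement, fell in all 3 mice from 29.1, 37.4 and 44.5 to 12.5, 20.1 and 15.3 CPM (-1.23, SE 0.208, adjusted p = 0.000208). A pair of carriers was higher in every mouse: Alb, albumin, went from 21886, 18185 and 18920.0 to 28570.0, 34084 and 37492 CPM (0.76, SE 0.142, adjusted p = 0.000345) and Ttr, transthyretin, from 669, 654 and 558 to 905, 872 and 946 CPM (0.53), with adjusted p of 0.058 and 0.052 for replicate 1 alone.

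Markers of other cells were read beside this split between mice. The summed level of the 7 red blood cell genes was 63.8 to 147 CPM at 0 h and 80.1, 260.1 and 336.5 CPM in the 3 h mice, so it was high in the mice with high acute phase genes. The 13 neutrophil markers were 0.773 to 2.73 CPM in sum at 0 h and 1.65, 4.67 and 6.94 CPM at 3 h, and none passed the filter on low counts. The 13 Kupffer cell markers summed to 103 to 185 CPM and to 94.0, 152 and 207 CPM, with none called by edgeR or DESeq2 (1 at an unadjusted p under 0.05). The 17 sinusoidal endothelial markers summed to 438 to 517 CPM and to 405, 435 and 419 CPM, below the 0 h range in each mouse, if narrowly in replicate 2. Of the 17, 1 was called lower (5.88%, against 6.85% of all genes), Maf (-0.46, adjusted p = 0.015). Its call was lost without replicate 1 or 3 at 3 h and without replicate 1 or 3 at 0 h. It was also lost with only the 2 groups in the fit (adjusted p up to 0.116 over these fits). The 16 stellate cell and fibroblast markers summed to 254 to 304 CPM and to 279.6, 323 and 314 CPM. The 9 bile duct markers were at 25.7 to 29 CPM and at 20.6, 43.7 and 30.9 CPM. The 17 lymphocyte markers summed to 1.80 to 4.00 CPM and 3.85, 3.05 and 3.47 CPM, with Trac, Trbc2 and Ighm at 0 in all 6 libraries. The part of blood or immune cells in the acute phase result was not tested. The defining genes of the labelled tissue were abundant: the 12 hepatocyte markers were at 43535 to 48635 CPM in sum at 0 h and 56531, 63724 and 65443 CPM at 3 h. Of the 12, 3 were called higher and none lower (25%, against 14.1% of all genes), 2 of them in all 3 mice. Alb alone had means of 19664 CPM at 0 h and 33382 CPM at 3 h, while the median log2 fold change of the 12 was 0.16.

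Of the largest changes shared by all 3 mice several belong to none of these programs. Sftpa1, known as the lung surfactant protein A and here with 99.4% of stranded reads on its own strand, went from 1.80, 2.31 and 1.07 to 59.2, 24 and 33.8 CPM (4.55, SE 0.481, adjusted p = 5.79e-06). Mtfr2, a regulator of mitochondrial fission, rose from 0.258, 0.841 and 0.133 to 8.26, 2.84 and 4.26 CPM (3.83, SE 0.666). Clec2d, a lectin-like membrane protein and ligand of a natural killer cell receptor, had the smallest p of all genes called lower, from 105, 105 and 81.1 to 12.7, 9.14 and 11.5 CPM (-3.11, SE 0.200, adjusted p = 1.92e-10). Paqr7, a membrane receptor of the progestin family, fell to nearly the same level in each mouse, from 8.89, 7.78 and 9.33 to 1.93, 1.83 and 1.89 CPM (-2.20, SE 0.311, adjusted p = 9.66e-06). Fam13a, which has been tied to lipid metabolism, fell from 34.4, 36.8 and 29.4 to 9.22, 9.75 and 6.31 CPM (-1.99, SE 0.191, adjusted p = 2.16e-08). Also among the 10 largest falls were the histone methyltransferase Setdb2 (-2.29), the dehydrogenase Dhrs7l (-1.97), Tbc1d30 of the Rab GAP family (-1.79), the zinc finger gene Zfp467 (-1.69), Phlda1 (-2.18) and the anchoring filament protein Lad1 (-1.74). The calls of Phlda1 and Lad1 were lost with replicate 1 alone at 3 h. That of Lad1 was also lost without replicate 3 at 3 h (0.0785) or replicate 3 at 0 h (0.0552). Setdb2 had a mean of 5.24 CPM at WT 0 h, but of 0.31 CPM at KO 0 h and 0.96 CPM at KO 3 h. Its means at WT 1 h and 12 h were 0.65 and 0.47 CPM.

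Large sets of genes of basic cell functions held no call. None of the 37 tested cytosolic ribosomal proteins (-0.36 to 0.15), 34 proteasome subunits (-0.42 to 0.44), 41 nuclear-encoded subunits of the respiratory chain (-0.28 to 0.30) or 15 transcripts of the mitochondrial genome (-0.17 to 0.62) was called at 3 mice a group. At an unadjusted p under 0.05 (edgeR) there were 2, 6, 2 and 5, and DESeq2 called 1 gene of the mitochondrial genome and none of the other 3 sets. Of 48 ribosome biogenesis factors 1 was called (2.08%, against 14.1% of all genes). Pericentral hepatocyte genes, the zone where the drug acts, gave 2 lower of 23 tested (8.7%, against 14.1% of all genes), Cyp2e1 and Cyp2c37. The call of Cyp2c37 (-0.69, adjusted p = 0.0386) was lost without replicate 2 (0.0999) or 3 (0.175) at 3 h and without replicate 1 (0.137), 2 (0.0818) or 3 (0.0573) at 0 h. Glul, the glutamine synthetase of the cells next to the central vein, was at 278, 252 and 261 CPM at 0 h against 241, 269 and 192 CPM at 3 h (-0.18, adjusted p = 0.699).

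To place 3 h in time, the same genes were tested against WT mice at 1 h, a comparison that uses the same 3 h mice. In it 848 genes were called, 6.42% of those tested, 418 higher (3.17%) and 430 lower (3.26%). Scaled by library size alone, 29.7% of the calls were higher, against 49.3%, and without replicates 2 and 3 at 3 h the count was 209. It was 400 without replicate 3 at 3 h and 370 without replicate 3 at 1 h. The metallothioneins were higher at 3 h than at 1 h: Mt2 averaged 159.8 ± 81 CPM (SD, n = 3) at 1 h and 726 ± 73.2 CPM at 3 h (log2 fold change 2.18, adjusted p = 0.000634), and Mt1 was higher by 1.89 (adjusted p = 0.00503). Chac1 was at 0.531 ± 0.125 CPM at 1 h and 3.69 ± 1.26 CPM at 3 h (2.77, adjusted p = 0.00124). Jun did not pass (-0.38, adjusted p = 0.326), nor did Egr1 (-1.02, 0.0779), Atf4 (0.25, 0.267) or Bhmt (-0.11, 0.792), all of which were above 0 h at both times in their means. Paqr7 was lower at 3 h than at 1 h (-2.50, adjusted p = 6.83e-06) and Ppara as well (-0.89, adjusted p = 0.00106). Map2k6 went the other way, at 23.5 ± 3.63 CPM at 0 h, 2.25 ± 0.242 CPM at 1 h and 6.40 ± 2.27 CPM at 3 h (1.53 from 1 h, adjusted p = 0.0022). By list, 17 of the 34 PPARA and fatty acid oxidation genes were lower at 3 h than at 1 h and none higher, with a median of -0.52 against 0.0094 over all genes, and 8 of 20 heat shock genes were lower and 1 higher. Of the acute phase list 25 of 31 were higher, with the split of the 3 h mice given above. Of the Kupffer cell markers 6 of 13 were higher than at 1 h and none lower. Their sum differed between the 3 h mice, at 94.0, 152 and 207 CPM against 103 to 185 CPM at 0 h.

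The mice without hepatocyte Egfr give the same 2 times in other animals. Egfr was still counted in their livers, at 82.4 ± 25.3 CPM (SD, n = 3) at 0 h and 179 ± 94.4 CPM at 3 h. In WT it was at 393 ± 63.9 and 464 ± 165 CPM. In KO 3 h against 0 h 1314 genes were called, 9.95% of those tested, 675 higher (5.11%) and 639 lower (4.84%). Of the 523 genes higher in all 3 WT mice 255 (48.8%) were called higher in KO and 1 lower, against 117 of the 438 other genes called higher in WT (26.7%). Of the 581 lower in all 3 WT mice 248 (42.7%) were called lower in KO and 2 higher, against 90 of the other 323 (27.9%). The shared set was picked on the spread of the WT mice, so these shares are a description. Jun rose by 4.45 in KO, Atf4 by 1.18 and Mt2 by 2.60, and Ppara fell by 0.69 (adjusted p = 0.00526). Of the acute phase list 3 of 31 were called higher in KO and 1 lower, with a median of 0.13, where WT had 24 and 1. The 3 are Mt1, Mt2 and Cd14, while the other members higher in WT were not shared by all 3 WT mice. The KO mice also varied, with Saa2 at 12.5 ± 18.3 CPM (SD, n = 3) at 3 h.

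Whether a response differed between the genotypes was tested directly, as the KO change minus the WT change. The test called 20 of 13204 genes (0.151%), 10 with a higher and 10 with a lower change in KO (0.0757% each), and 1145 at an unadjusted p under 0.05. DESeq2 called 85. Leaving out 1 library gave 6 (KO 3 h replicate 3) to 142 genes (WT 3 h replicate 1). Among the genes named here 4 passed. Clec2d fell less in KO, from 84.4 ± 10.1 to 26.8 ± 5.05 CPM, than in WT (difference 1.45, SE 0.268, adjusted p = 0.0218). Fam13a went from 31.1 ± 2.73 to 22.1 ± 3.33 CPM in KO (1.50, SE 0.258, adjusted p = 0.00641). Hp was at 435 ± 32.2 and 503 ± 49.1 CPM in KO (-1.49, SE 0.263, adjusted p = 0.0148, but -0.58 and 0.371 with replicate 1 alone at WT 3 h), and Socs3 fell there, from 5.37 ± 1.56 to 2.31 ± 0.252 CPM (-2.35, SE 0.451, adjusted p = 0.0262). For the acute phase genes that split the WT mice the difference did not pass, for example Saa2 (-4.21, adjusted p = 0.871) and Fga (-1.56, adjusted p = 0.218). The call of Clec2d was lost without WT 3 h replicate 3 (0.0551), WT 0 h replicate 1 (0.0580), KO 3 h replicate 2 (0.0526) or 3 (0.0938) or KO 0 h replicate 2 (0.0606). That of Hp was lost without WT 0 h replicate 1 (0.0573) or KO 3 h replicate 3 (0.0644). That of Socs3 was lost without WT 3 h replicate 3, WT 0 h replicates 1 or 3, any KO 3 h replicate or KO 0 h replicate 2 (0.0551 to 0.101). A difference that misses the threshold at 3 mice a group does not show that the genotypes respond alike.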

How the data were processed

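RNA of 24 mouse livers was extracted with TRIzol and sequenced on an AVITI instrument, per the labels' protocols. Per the submitters' processing notes, the authors aligned reads to mm39 with STAR, and what they deposited are unnormalized read counts for each gene. For its version and the annotation the record is: not given in the sources used here. The unstranded of 3 count columns was used. The 4 lines that name no gene held 77.5% to 82.4% of reads and were left out; 50657 gene rows remained.

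In R 4.3.3, edgeR 4.0.16 was run on all 24 libraries: filterByExpr, TMM, robust quasi-likelihood fit with 1 mean per group, two-sided F-test, Benjamini-Hochberg adjustment over 13204 genes, threshold 0.05. The steps were tested on simulated data. Alternatives were scaling, filter, DESeq2 1.42.0, fewer groups, a replicate block, the gene-strand column and left-out libraries. Fits of the genes named after their values were seen, and of single-gene differences, were added after seeing the data.

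Replicates are individual mice, per the labels. Replicate pairs correlated at 0.961 to 0.982 (Pearson, log2 CPM, prior count 2) and differed by 3.86 to 21.2 times counting variance. Replicate numbers were not used as pairs. Of the 3 pairs of the same number at WT 0 h and 3 h, 0 had deviations from the group means that correlated over 0.1. Of the WT 0 h libraries 2 correlated best with the 3 h library of their own number. Whether libraries of the same number share a batch was not tested.

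Named genes are the 10 largest shared changes in each direction with at least 5 CPM and 50% of reads on their strand, up to 4 called members of each of 56 lists by smallest p in each direction, and 6 called genes with the widest gap between mice; clone names were passed over. Defining members of a list that were not called are given by their values. Some genes that the rule names are not reported here. From the rest the text keeps those whose call is firmest or whose role the list turns on. Members and lists were chosen with earlier results of these data known. Genes low in every group are not tested, so counts of list members describe the genes that passed the filter.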

Additional observations from a re-analysis of the deposited data

Results flagged for a closer look

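The response from 0 h to 3 h differed between the genotypes in 4 of the named genes, by the test of the difference itself (edgeR's quasi-likelihood test, KO change minus WT change, Benjamini-Hochberg adjusted). The difference was 1.45 for Clec2d, which lost its call in 6 of 22 other fits (1.29 to 1.60). It was 1.50 for Fam13a, whose call was lost in 1 of 22, with WT 3 h replicate 1 alone (adjusted p = 0.0602). It was -1.49 for Hp, lost in 4 of 22, and as small as -0.58 (adjusted p = 0.371) with WT 3 h replicate 1 alone. It was -2.35 for Socs3, lost in 8 of 22 (-2.49 to -2.08, adjusted p up to 0.101).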

How the results depend on the processing

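The 1865 calls of 3 h against 0 h became 1198 with only the 2 groups in the fit and 1027 with WT 3 h replicate 1 alone, and 1255 to 1660 without each library in turn. With library size as the only scaling there were 1880, of which 36.6% were higher against 51.5%, and the median of all genes moved to -0.090. With RLE scaling 52.3% were higher. The 848 calls of 3 h against 1 h became 458 with only those groups and 209 with replicate 1 alone, and 370 to 931 without each library (400 without WT 3 h replicate 3, 370 without WT 1 h replicate 3); 29.7% of 983 were higher with library size alone, against 49.3%. The 20 differences between genotypes became 159 with no filter and 85 with DESeq2, and 6 to 142 without each library, the highest without WT 3 h replicate 1.

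The replicate numbers were not used as pairs in the main fit. With the number as a block the counts were 1892, 868 and 34, against 1865, 848 and 20.

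With replicate 1 alone at 3 h, where its spread is taken from the other groups, the direction turned for Apcs (-0.37), Hbb-bt (-0.41), Orm2 (-2.28), Saa1 (-0.079), Saa2 (-1.01) and Scd1 (-0.27), and with the gene-strand column for Wars1 (-0.029). Among genes that were not called the sign also turned: with replicate 1 alone Cyp3a11 0.26, Por 0.11, Gclm -0.025, Nqo1 -0.0031, Nfe2l2 0.0074, Egfr -0.38 and Pck1 0.0051, and with library size alone Gclc -0.018 and Gclm -0.037. Without each library in turn the ranges of those whose sign turned were -0.080 to 0.57 (Cyp1a2), -0.29 to 0.20 (Cyp3a11), -0.11 to 0.028 (Por), -0.14 to 0.22 (Gclc), -0.044 to 0.099 (Gclm), -0.083 to 0.028 (Hnf4a), -0.057 to 0.47 (Egfr) and -0.11 to 0.48 (G6pc1). Of the 185 genes named by rule 75 were called under every setting and 110 lost the call under at least 1. With only the 2 groups in the fit 45 of 182 lost it. Without replicates 2 and 3, 502 of the 1104 shared genes were still called (45.5%) and 322 of the other 761 (42.3%); without replicate 1 these were 818 (74.1%) and 450 (59.1%). At 2.64 to 4.31 M counts a gene of a few CPM rests on few reads. The causes of these shifts were not tested.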
